A study of Mus musculus with 8 samples.

Results

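The genes described here are 10 members of the AP-1 family of transcription factors, taken by name from the table of read counts, where they are spelled in capitals (FOS, FOSB, FOSL2, JUN, JUNB, JUND, ATF3, BATF, MAFF and MAFK). They are Fos, Fosb and Fosl2 of the Fos group, Jun, Junb and Jund of the Jun group, the ATF-like factors Atf3 and Batf, and the small Maf factors Maff and Mafk. They are 10 of the 46625 genes in the table. All 10 passed the filter on low counts, which left 14607 genes for testing. The libraries came from 8F10 T cells, CD4 T cells whose receptor recognises a peptide of insulin, and the donors lacked the endogenous TCR alpha chain and carried CD45.2. Donor marrow stripped of T and B cells was given to CD45.1 hosts that had received a non-lethal dose of radiation, so each host could keep lymphocytes of its own. The hosts were either NOD mice, the autoimmune diabetes strain with native insulin, or B16A mice, known as NOD animals that make only insulin altered at 1 residue of its B chain. After 6 weeks the 8F10 T cells were sorted by flow cytometry from the inguinal lymph node, which does not drain the pancreas. The strain of every library is given as NOD/ShiLtJ, and the labels give neither age nor sex. Each host had 4 libraries, 1 in each of 4 numbered batches, and the question asked of the AP-1 genes was whether their levels followed the host or the batch.

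AP-1 is a dimer of basic leucine zipper proteins, most often one Fos and one Jun protein, that binds short DNA elements in enhancers and promoters. Fos, Fosb, Jun, Junb and Atf3 are immediate early genes: their transcripts appear within minutes of a stimulus from signals such as the MAP kinases, with no need for new protein, and they decay fast. In T cells AP-1 works with NFAT at cytokine genes after the T cell receptor is engaged, and the same genes are also known to be induced by tissue dissociation and handling of cells.

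The libraries differed by batch before any AP-1 gene is considered. Total counts were 4896593 to 6137666 in the 6 libraries of batches 1 to 3, and 28301805 (NOD) and 28094237 (B16A) in batch 4. The batch 4 libraries had fewer detected genes (19751 and 20723, against 29729 to 33175), and the repeat-like gene model Gm10800 took 0.00205% and 0.00469% of their counts, against 5.87% to 17.1%. Mitochondrial transcripts took 6.21% to 12.1% of counts in batches 1 to 3, against 3.13% and 4.63% in batch 4. Xist, the RNA of the inactive X chromosome, reached 1039 and 1207 CPM (read counts scaled to a common library size) in batch 1 and at most 33.7 CPM elsewhere. The Y-linked Kdm5d was near 0 in batch 1 (0.516 and 0.152 CPM) and at 78.8 CPM or more elsewhere, so sex also differed between batch 1 and the rest. Cd4, the defining marker of the labelled cells, stood at 699 to 1204 CPM. Of the markers of other cells, Cd8a stood at 0 to 3.56 and Lyz2 at 0 to 3.92 CPM, but Cd8b1 ranged from 62.6 to 186 CPM and the B cell marker Ighm from 428 to 1271 CPM. CPM are given on library sizes adjusted by TMM, the scaling of edgeR.

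The levels of most AP-1 transcripts followed the batch. Between hosts, 0 of the 10 genes passed an adjusted p of 0.05, and the share of all tested genes that passed was 0% as well. Between batch 4 and batches 1 to 3, 7 of the 10 were higher and 1 was lower (32.1% and 39.4% of all tested genes). Among the 3 batches of like depth, 6 of the 10 differed (Fos, Fosb, Jun, Junb, Jund and Maff), against 2.79% of all tested genes. The libraries come from sorted bulk cells, in which fewer cells that express a gene and less RNA per cell cannot be told apart.

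The promoters of 4 of these genes that were highest in batch 4 or batch 1 (Fos, Fosb, Jun, Junb), and that of Atf3, which was lowest in batch 4, are shown for what they share. Each is the 250 bases before the RefSeq start site on GRCm38.p6, written 5′ to 3′ on the strand of the gene. The windows are chr12:85473640-85473889 (plus strand) for Fos, chr7:19310046-19310295 (minus) for Fosb, chr4:95052223-95052472 (minus) for Jun, chr8:84978749-84978998 (minus) for Junb and chr1:191183334-191183583 (minus) for Atf3. Capitals mark TGACG, the core of the element bound by CREB and ATF proteins (CGTCA where it lies on the other strand), or in Jun the AP-1-like element TGACATCA.
Fos: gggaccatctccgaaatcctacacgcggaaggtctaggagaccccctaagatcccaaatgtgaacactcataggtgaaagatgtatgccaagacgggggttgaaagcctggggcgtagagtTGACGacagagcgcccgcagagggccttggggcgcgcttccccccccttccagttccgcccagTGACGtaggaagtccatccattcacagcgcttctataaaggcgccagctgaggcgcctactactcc
Fosb: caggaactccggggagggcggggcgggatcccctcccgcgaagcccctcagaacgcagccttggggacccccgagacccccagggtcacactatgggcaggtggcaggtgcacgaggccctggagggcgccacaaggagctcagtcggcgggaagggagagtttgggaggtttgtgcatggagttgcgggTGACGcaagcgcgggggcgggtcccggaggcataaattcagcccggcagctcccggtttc
Jun: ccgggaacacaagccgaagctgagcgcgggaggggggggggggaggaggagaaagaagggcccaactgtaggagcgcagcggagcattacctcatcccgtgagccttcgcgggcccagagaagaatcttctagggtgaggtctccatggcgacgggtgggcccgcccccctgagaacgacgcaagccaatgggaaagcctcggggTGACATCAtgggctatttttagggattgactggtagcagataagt
Junb: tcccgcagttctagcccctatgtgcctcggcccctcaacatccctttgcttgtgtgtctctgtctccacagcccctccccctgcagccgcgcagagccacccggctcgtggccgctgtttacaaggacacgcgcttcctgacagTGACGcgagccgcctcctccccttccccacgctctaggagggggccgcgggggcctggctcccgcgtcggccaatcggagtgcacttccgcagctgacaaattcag
Atf3: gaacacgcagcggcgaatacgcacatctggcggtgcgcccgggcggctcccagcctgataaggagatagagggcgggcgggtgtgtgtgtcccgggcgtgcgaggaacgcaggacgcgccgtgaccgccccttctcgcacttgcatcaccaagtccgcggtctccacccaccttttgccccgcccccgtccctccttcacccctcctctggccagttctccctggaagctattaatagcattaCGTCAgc

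TGACG was searched on both strands and was found before 7 of the 10 genes (Fos, Fosb, Junb, Atf3, Batf, Maff and Mafk), in 8 of their 12 windows, since a gene can have more than one start. It occurred in 17.8% of all 32851 windows of this length. The Fos window held it at positions -129 and -66 from the start, the Junb window at -106, the Fosb window at -60 and the Atf3 window at -7. TGACNTCA, an overlapping element, was found before Jun (as TGACATCA, from -45 to -38) and Maff, and in 7.49% of all windows. The classical AP-1 element TGANTCA (6.75% of all windows) and the CArG box, the element of serum response factor (1.47%), had no match in any window of the 10 genes. A match describes the letters only, and a missing match says only that the letters are not in this window.

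Fos, the partner in the classical AP-1 dimer (GRCm38 chr12:85473890-85477273, plus strand), had the widest range of the 9 members with counts in every library. In the NOD libraries of batches 1 to 4 it stood at 186, 97.2, 24.4 and 1159 CPM, and in the B16A libraries at 282, 187, 13.9 and 475 CPM. Both batch 3 libraries were the lowest and both batch 4 libraries the highest, and the ranges of the hosts overlapped. Its highest library was 83.3 times its lowest. Batch 1 was above batch 3 by 3.55 on the log2 scale (SE 0.40, adjusted p = 0.0107), batch 2 was above batch 3 by 2.79 (SE 0.39, adjusted p = 0.0146), and batch 4 was above the mean of batches 1 to 3 by 3.22 (SE 0.41, adjusted p = 0.000413). Kdm5d was at 78.8 CPM or more in the libraries of both batches 2 and 3, and the part of sex in the differences from batch 1 was not tested.

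Fosb, a close relative of Fos (chr7:19302696-19310051, minus strand), was the one member of the Fos group whose highest library lay in batch 1. It stood at 100.5, 22.4, 8.33 and 186 CPM in the NOD libraries and at 301, 57.6, 5.83 and 96.4 CPM in the B16A libraries. Batch 3 was again lowest in both hosts, and batch 4 overlapped batch 1. The step from batch 3 to batch 1 was 4.61 on the log2 scale (SE 0.48, adjusted p = 0.0116), the largest of the 10 members. Batch 4 exceeded the mean of batches 1 to 3 by 2.00 (SE 0.53, adjusted p = 0.0179), a call lost under upper-quartile scaling (1.33) and without the NOD library of batch 4 (0.96).

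Fosl2, also called Fra-2 and slower to respond than Fos (chr5:32135801-32157842, plus strand), was a minor transcript. It stood at 21.9, 9.35, 4.25 and 42.6 CPM in the NOD libraries and at 15.8, 9.83, 10.7 and 62.2 CPM in the B16A libraries. Both batch 4 libraries lay above the other 6, by 2.23 on the log2 scale (SE 0.26, adjusted p = 3.72e-06). Among batches 1 to 3 the test missed the threshold (adjusted p = 0.0600).

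**Figure D1:**
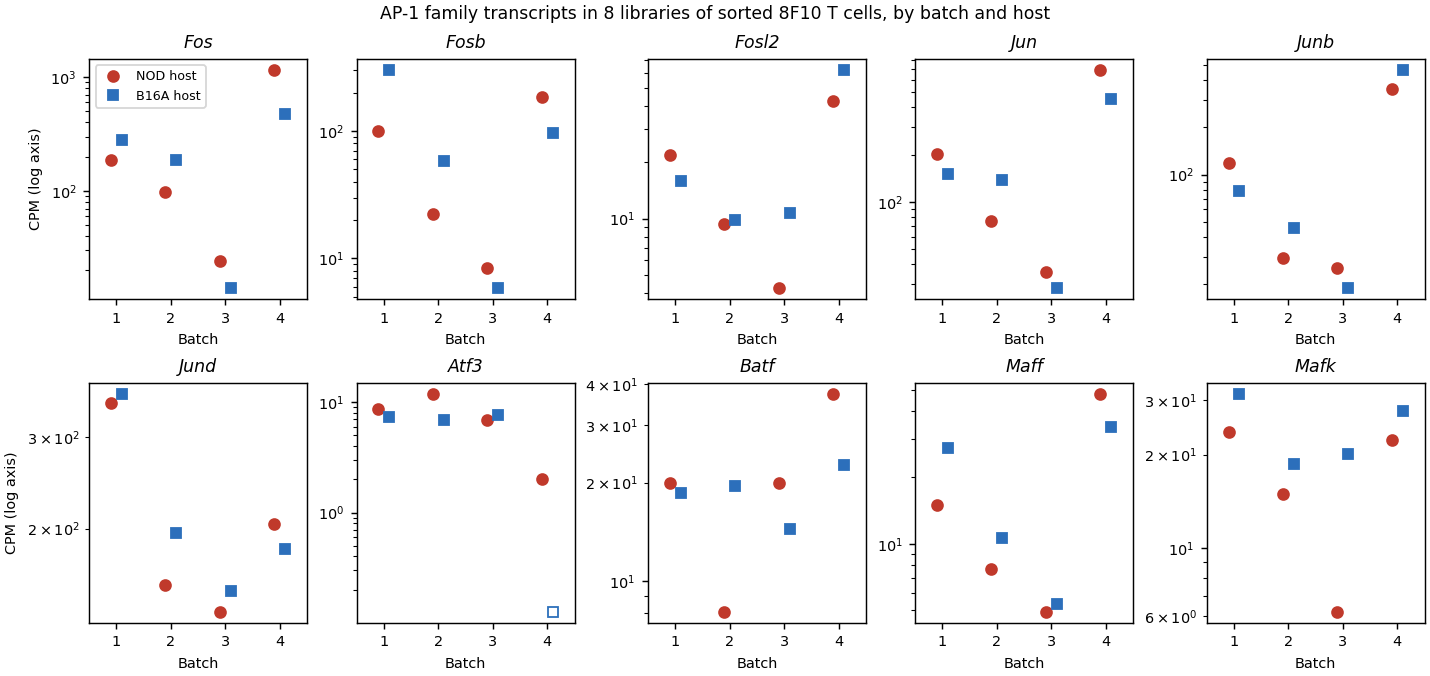
CPM (log axis, a range of its own in each panel) of the 10 AP-1 genes by batch, with NOD hosts as red circles and B16A hosts as blue squares, 1 library a point; the open square in the Atf3 panel is a count of 0 drawn at the level of 3 counts. Fos runs from 13.9 CPM in batch 3 to 1159 CPM in batch 4, and in each panel the hosts overlap.

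Jun, the main partner of Fos (chr4:95049034-95052222, minus strand), followed the same order. Its levels were 202, 75.7, 36.0 and 691 CPM in the NOD libraries and 150.1, 137, 28.2 and 452 CPM in the B16A libraries. In both hosts the order was batch 4, then 1, then 2, then 3. Batch 1 was above batch 3 by 2.46 on the log2 scale (SE 0.26, adjusted p = 3.17e-05), batch 2 above batch 3 by 1.71 (SE 0.26, adjusted p = 0.00172) and batch 4 above the mean of the others by 2.74 (SE 0.21, adjusted p = 3.58e-08). The antisense gene Junos overlaps its exons and stood at 0.672 to 7.02 CPM. The sources used here do not give whether the counting used strand.

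Junb, a Jun protein that can also restrain Jun (chr8:84974484-84978718, minus strand), kept that order too. It stood at 119, 29.5, 25.3 and 350 CPM in the NOD libraries and at 78.4, 45.6, 18.9 and 462 CPM in the B16A libraries. The 2 batch 4 libraries were far above the rest, and batch 1 was above batches 2 and 3 in both hosts. The differences were 3.22 on the log2 scale for batch 4 against the others (SE 0.20, adjusted p = 3.71e-09) and 2.16 for batch 1 against batch 3 (SE 0.25, adjusted p = 1.08e-05). Prdx2, on the opposite strand, overlaps its exons and stood at 16.6 to 88.3 CPM.

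Jund, the Jun protein that resting cells express steadily (chr8:70698949-70700616, plus strand), was the exception of the Jun group in batch 4. It stood at 349, 156, 138 and 204 CPM in the NOD libraries and at 364, 196, 152 and 183 CPM in the B16A libraries. Its highest libraries were those of batch 1, the batch 4 libraries lay among the others, and the highest library was only 2.64 times the lowest. Batch 1 was above batch 3 by 1.31 on the log2 scale (SE 0.18, adjusted p = 2.01e-05) and above batch 2 by 1.05 (adjusted p = 0.000714). For batch 4 against the others the difference was -0.11 (SE 0.15, adjusted p = 0.552). That value passed the threshold as lower in batch 4 under upper-quartile scaling (-0.78), scaling by total counts (-0.48) and a minimum of 10 counts in every library (-0.39), and it was 0.16 with no filter.

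Atf3, a stress-induced factor that can repress transcription (chr1:191170296-191218039, minus strand), moved the other way. It stood at 8.60, 12.0, 6.86 and 2.02 CPM in the NOD libraries and at 7.31, 6.87, 7.60 and 0 CPM in the B16A libraries. Batches 1 to 3 were within a narrow range and both batch 4 libraries were below them. Of all tested genes, 40.4% likewise had both batch 4 libraries below the other 6. The NOD library of batch 4 held 45 Atf3 counts and the B16A library none, although their totals were alike, so Atf3 was at least 16.005-fold higher in the former (floor of 3 counts in that library, or 0.126 CPM, for counting error only). Of 1625 tested genes with 22.5 to 90 counts in the NOD library of batch 4, 43 (2.65%) were likewise at 0 in its partner. The test of batch 4 against the others passed (adjusted p = 0.00532). Its fitted log2 value of -3.42 (SE 0.94) depends on the prior count, since 1 library is at 0, and ran from -8.95 to -2.09 when single libraries were left out. Batches 1 and 3 differed by 0.13 (SE 0.42), which did not pass.

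Batf, which pairs with Jun proteins and is needed for several helper T cell fates (chr12:85686669-85709087, plus strand), varied little by batch. It stood at 19.96, 8.04, 19.9 and 37.5 CPM in the NOD libraries and at 18.6, 19.5, 14.4 and 22.6 CPM in the B16A libraries. Both batch 4 libraries lay above the other 6, but narrowly in the B16A host. The difference of 0.84 on the log2 scale (SE 0.31, adjusted p = 0.0231) did not pass under DESeq2 size factors (0.70), upper-quartile scaling (0.17), total counts (0.47), a minimum of 10 counts in every library (0.56), the DESeq2 test (0.70) or without the NOD library of batch 4 (0.42).

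Maff and Mafk are small Maf proteins, which lack an activation domain and act as partners of other leucine zipper factors. Maff (chr15:79346621-79359076, plus strand) stood at 15.0, 7.67, 4.90 and 48.1 CPM in the NOD libraries and at 27.3, 10.6, 5.34 and 33.8 CPM in the B16A libraries. Its order was that of Jun, with batch 4 highest and batch 3 lowest in both hosts. It was 2.07 higher on the log2 scale in batch 4 than in the others (SE 0.26, adjusted p = 7.57e-06) and 2.00 higher in batch 1 than in batch 3 (SE 0.36, adjusted p = 0.00175). Mafk (chr5:139791513-139802653, plus strand) stood at 23.7, 15.0, 6.21 and 22.4 CPM in the NOD libraries and at 31.5, 18.7, 20.1 and 27.7 CPM in the B16A libraries. Its NOD library was below its B16A partner in every batch, though the groups overlapped. Batch 4 differed from the others by 0.50 (SE 0.27, adjusted p = 0.112), and this was -0.18 under upper-quartile scaling. Tmem184a, at 2.77 to 8.98 CPM, overlaps the end of Mafk on the opposite strand.

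The members differed widely in level once length was taken into account. Per kilobase of exon, the mean level over the 8 libraries was highest for Jund (131 ± 53.2 CPM per kilobase, SD, n = 8) and Fos (129 ± 160). Jun (69.5 ± 73.0) and Junb (61.3 ± 73.6) came next. Fosb (15.6 ± 16.3) and Batf (14.3 ± 5.94) followed, then Maff (7.36 ± 6.07) and Mafk (5.29 ± 2.00). Atf3 (2.97 ± 1.74) and Fosl2 (2.28 ± 2.08) were lowest. Batf and Maff, and Mafk and Atf3, differed by more than the SD of both genes. The other neighbours in this order did not. These SDs include the differences between batches, and no test compared the genes within libraries. The order itself changed with batch: in batch 3 Jund was first (82.9 and 91.1 CPM per kilobase), with Jun (11.3 and 8.83) and Fos (10.4 and 5.92) far below it, while Fos led in batch 4 at 493 in the NOD host and 202 in the B16A host.

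The host comparison was read in 3 ways: over all 8 libraries with no batch term, with batch as a term (the replicate block), and within batches 1 to 3 with batch as a term. In the first, the log2 differences, NOD minus B16A, ran from -0.54 (Fosb, SE 1.17, and Mafk, SE 0.43) to 0.61 (Fos, SE 1.22), 4 of 10 were above 0, and the adjusted p was 0.9999 for each. The median was -0.05, beside 0.03 for all tested genes. Mean Fos was 367 ± 532 CPM for NOD and 240 ± 193 CPM for B16A hosts (SD over 4 libraries), so the spread within a host exceeded the difference. At an unadjusted p under 0.05, edgeR had 34 of the 14607 genes and none of the 10. With the replicate block the standard errors were smaller for all 10 genes (0.13 to 0.69, against 0.40 to 1.22) and still none passed. At an unadjusted p under 0.05 that fit had 857 genes, Mafk among them. Mafk came nearest, at -0.64 (SE 0.25, adjusted p = 0.801). DESeq2 with batch as a term called 27 genes (0.758% of those it gave an adjusted p). None of these was a member, but only 5 of the 10 (Fos, Fosb, Jun, Junb and Jund) were given an adjusted p.

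Within batches 1 to 3, 8 of the 10 members were below 0 in NOD hosts with a median of -0.21 (0.02 for all tested genes), and 0 of 10 passed, beside 0.204% of all tested genes. Fosb differed by -1.06 (SE 0.36, adjusted p = 0.466) and Mafk by -0.75 (SE 0.25, adjusted p = 0.282). Fosb passed when either batch 3 library was left out, at -1.49 each time (adjusted p = 2.37e-05 without the NOD library and 0.000479 without the B16A library), a fit in which only batches 1 and 2 compare the hosts. The ratios within a batch turned from one batch to the next. Fos in NOD hosts was lower than in B16A hosts by 0.60 and 0.94 in batches 1 and 2 and higher by 0.80 and 1.28 in batches 3 and 4, on the log2 scale. Fosb showed the same turn (-1.58, -1.35, 0.50 and 0.94). In batch 2, the NOD library was the lower one for 9 of the 10 members (median -0.54), against 5 in batch 1, 5 in batch 3 and 3 in batch 4. That was not particular to the members. The batch 2 median was also below 0 for other immediate early genes (-0.37), regulators upstream of AP-1 (-0.34) and heat shock genes (-0.19). It was 0.10 for other leucine zipper factors and 0.06 for T cell genes with AP-1 and NFAT sites. Of the 10 members, only Mafk had 1 direction in all 4 batches (-0.41, -0.32, -1.66 and -0.30), a pattern with NOD lower that 6.85% of tested genes had. A term for a different host effect in batch 4 passed for Atf3 alone of the 10 (log2 7.06, SE 1.26, adjusted p = 0.0462), beside 0.246% of all tested genes, and that value rests on the count of 0 in the B16A library of batch 4.

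**Figure D2:**
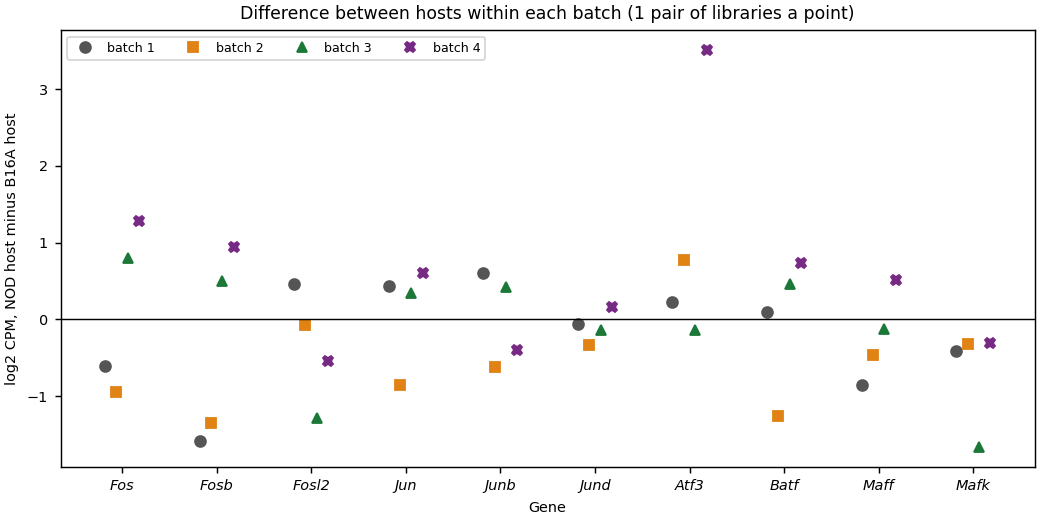
Log2 CPM in the NOD host minus that in the B16A host for each AP-1 gene (x axis), 1 point for each batch. Points lie on both sides of 0 for 9 of the genes, while Mafk lies below 0 in all 4 batches, from -1.66 to -0.30.

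The split of the sum of squares of log2 CPM states the same comparison without a test. Over 8 libraries batch took a median of 92.5% of it for the 10 members and host 0.906%, beside 86.8% and 1.83% for all tested genes. Over the 6 libraries of batches 1 to 3 batch took 89.5% for the members and 46.0% for all tested genes. Jund (96.6%), Fos (93.9%), Jun (92.3%), Junb (91.0%), Fosb (90.2%) and Maff (88.8%) had the highest batch shares there, and Fosl2 had 69.3%. Atf3 (23.2%), Batf (30.3%) and Mafk (51.8%, with 30.2% for host) had the lowest. A batch term with 3 or 4 levels takes more of the sum than a host term with 2, so the shares of the members are to be read against those of all genes.

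**Figure D3:**
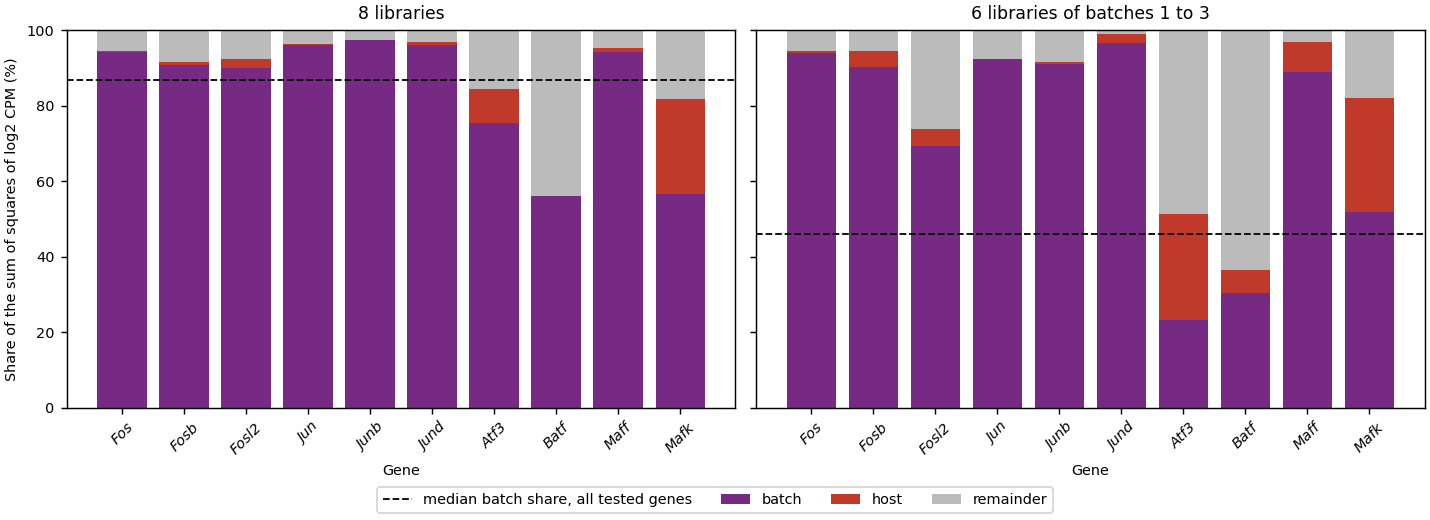
Share of the sum of squares of log2 CPM (%) taken by batch, host and the remainder for each AP-1 gene, over all 8 libraries (left) and over batches 1 to 3 (right); the dashed line is the median batch share of all tested genes. In batches 1 to 3 that median is 46.0%, and Fos, Fosb, Jun, Junb, Jund and Maff each exceed 88%.

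The order of the batches was shared by both hosts. Batch 1 lay above batch 2 and batch 2 above batch 3 in both hosts for 6 of the 10 members (Fos, Fosb, Jun, Junb, Jund and Maff) and for 1.86% of tested genes, an order chosen after the values were seen. With batch 4 on top, 4 members (Fos, Jun, Junb and Maff) and 0.602% of tested genes had it. In the single contrast of batch 1 with batch 3, all 10 members were above 0 with a median of 1.70 (-0.01 for all tested genes), and the same 6 passed as higher, beside 0.388% of tested genes (0.452% in either direction). None passed as lower, beside 0.0636%. Fosl2 (1.39, SE 0.38, adjusted p = 0.160) and Mafk (1.19, SE 0.30, adjusted p = 0.102) did not pass. Between batches 2 and 3, Fos and Jun passed as higher in batch 2 (0.426% of tested genes) and none as lower (1.85%), with 2.28% of tested genes called in all. Between batches 1 and 2, Fosb, Junb and Jund passed as higher in batch 1 (1.51%) and none as lower (0.477%), with 1.99% in all. These contrasts share libraries. With single libraries left out, 5 to 8 members differed among batches 1 to 3. Fosb no longer passed without the NOD (adjusted p = 0.289) or the B16A library of batch 2 (adjusted p = 0.233), nor Maff without the B16A library of batch 1 (adjusted p = 0.353).

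**Figure D4:**
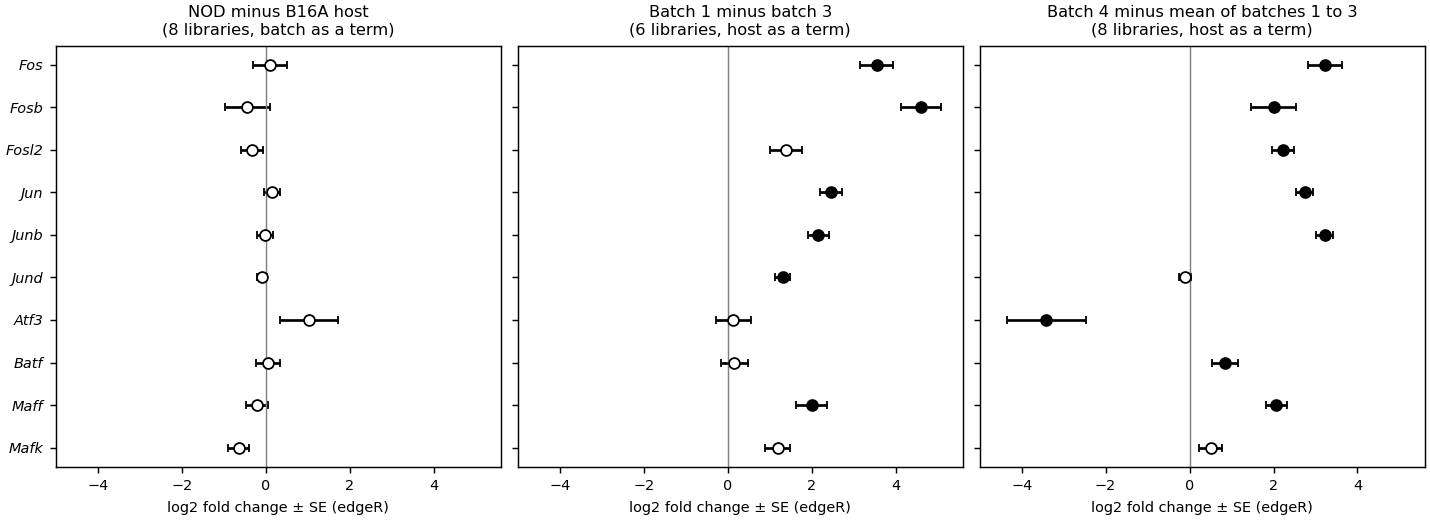
Log2 fold change with its SE (edgeR) for each AP-1 gene in the host comparison with batch as a term (left), batch 1 minus batch 3 (middle) and batch 4 minus the mean of batches 1 to 3 (right); filled points have an adjusted p under 0.05. No point is filled on the left, 6 are in the middle and 8 on the right, where Atf3 alone of these lies below 0.

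Batch 4 against batches 1 to 3 gave a median of 2.04 for the members and -0.25 for all tested genes, of which 71.5% passed in either direction. Both batch 4 libraries lay above all others for 6 members (Fos, Fosl2, Jun, Junb, Batf and Maff), as they did for 31.8% of tested genes. Scaling moved the median of all genes in this contrast by -0.15 (DESeq2 size factors), -0.38 (total counts) and -0.68 (upper quartile) relative to TMM. Fos, Fosl2, Jun, Junb and Maff passed as higher and Atf3 as lower under each of these. Depth, the number of detected genes and the Gm10800 share move with this contrast, and their part in it was not tested.

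Other immediate early genes shared much of this pattern. Of 22 on the list 20 were tested. Batch 4 was higher for 15 and lower for 2, beside 32.1% and 39.4% of all tested genes, with a median of 3.10. Cd69, an early activation marker that keeps T cells in lymph nodes, ranged from 88.2 to 357 CPM over batches 1 to 3 and reached 4781 (NOD) and 3734 CPM (B16A) in batch 4, a log2 difference of 4.85 (SE 0.15, adjusted p = 1.52e-11). Gadd45b, a stress and NF-kappaB target (4.41, SE 0.35), and Btg2, an antiproliferative gene (4.09, SE 0.20), were the next largest. The zinc finger factors Egr1 (-0.75, SE 0.22, adjusted p = 0.00804) and Egr3 (-5.81, SE 0.91, adjusted p = 5.72e-05) were lower. Egr3 stood at 0.0448 and 0.0838 CPM in batch 4, so its level there rests on few counts, and its fitted value depends on the prior count. Among batches 1 to 3, 12 of 20 differed, beside 2.79% of all tested genes. In batch 1 against batch 3 all 20 were above 0 (median 0.95) and 10 passed as higher, beside 0.388% of all tested genes. These 10 were Egr1, Nr4a1, Nr4a3, Dusp1, Zfp36, Klf2, Klf6, Ppp1r15a, Tnfaip3 and Cd69, from 0.85 (Klf2) to 2.74 (Dusp1, the MAP kinase phosphatase). Between hosts 0 of 20 passed, and Dusp2 (0.65, SE 0.59) and the orphan nuclear receptor Nr4a3 (-0.63, SE 0.64), with the smallest p, had an adjusted p of 0.9999.

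**Figure D5:**
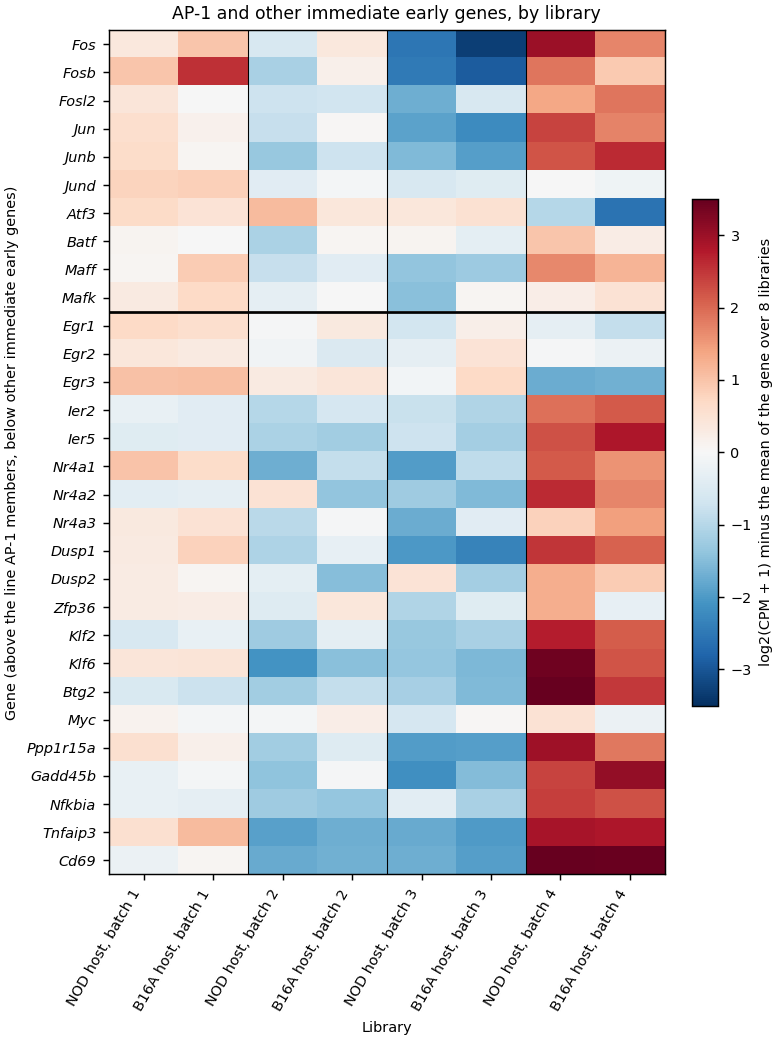
Log2(CPM + 1) minus the mean of each gene over the 8 libraries, for the 10 AP-1 genes (above the thick line) and the 20 other immediate early genes tested, with libraries in pairs by batch; the colour scale ends below the highest values, so the darkest cells can lie beyond it. Batch 4 is red for most rows and blue for Atf3 and Egr3, and batch 3 is blue for Fos, Fosb, Jun and Dusp1.

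Heat shock genes, which encode chaperones, were set beside the AP-1 genes as another stress response. None of 10 passed among batches 1 to 3, beside 2.79% of all tested genes. In batch 4, 6 were higher and 0 lower, beside 32.1% and 39.4% of all tested genes. The largest were the mitochondrial chaperones Hspd1 (2.83, SE 0.21) and Hspe1 (2.59, SE 0.27) and the co-chaperone Dnaja1 (2.40, SE 0.17). Between hosts 9 of 10 were above 0 (median 0.39, beside 0.03 for all tested genes) and 0 passed, with Hsph1 (0.92, SE 0.39) and Dnajb1 (0.50, SE 0.29) nearest.

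Of the regulators upstream of AP-1, 0 of 18 passed among batches 1 to 3, beside 2.79% of all tested genes. In batch 4, 5 were higher and 7 lower (median -0.07), shares near the 32.1% and 39.4% of all tested genes. The kinases Map3k1 (2.06, SE 0.17), Map2k3 (1.91, SE 0.24) and Map2k1 (1.78, SE 0.22) were the largest of the first kind. The transcription factors that act at the Fos promoter, Elk1 (-3.09, SE 0.35) and Srf (-2.89, SE 0.22), and the Srf coactivator Mkl1 (-2.44, SE 0.21) were the largest of the second. Srf ranged from 115 to 168 CPM over batches 1 to 3 and lay at 15.7 and 22.1 CPM in batch 4, the batch with the most Fos. Between hosts 0 of 18 passed, with the kinase Mapk3 (-0.36, SE 0.31) and the Srf partner Elk4 (-0.24, SE 0.21) nearest.

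Of 34 other leucine zipper factors 26 were tested, and batch 4 was higher for 11 and lower for 11 (median -0.02), beside 32.1% and 39.4% of all tested genes. Crem, a cAMP response factor, rose most (4.52, SE 0.22, from at most 8.09 CPM to 124 and 164 CPM), followed by Maf (2.57, SE 0.21), a T helper cell factor, and Nfil3 (2.41, SE 0.74). Hlf ranged from 2.07 to 5.98 CPM over batches 1 to 3 and had no counts in either batch 4 library. Atf5 (-5.45, SE 0.97) was also lower. Among batches 1 to 3 only Atf4, the factor of the integrated stress response, differed of the 27 then tested (adjusted p = 0.0123), beside 2.79% of all tested genes. It was 0.92 higher in batch 1 than in batch 3 (SE 0.20, adjusted p = 0.0246). Between hosts 0 of 26 passed, with Tef (0.42, SE 0.33) and Atf2 (-0.14, SE 0.21) nearest.

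Only 4 of 13 T cell genes with known AP-1 and NFAT sites passed the filter on low counts. Fasl, the death ligand (3.83, SE 0.26), and Cd40lg, the ligand by which helper T cells signal to B cells (1.51, SE 0.16), were higher in batch 4, and the interleukin 2 receptor chain Il2ra was lower (-3.09, SE 0.49). Tnf was at 12.7 to 24.5 CPM in all 8 libraries (0.14, SE 0.29). None of the 5 tested among batches 1 to 3 passed, beside 2.79% of all tested genes. Between hosts none of 4 passed, and Il2ra (0.49, SE 0.87) and Tnf (-0.13, SE 0.31) were nearest.

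Of the CD4 T cell markers, 7 of 10 were higher and 2 lower in batch 4, beside 32.1% and 39.4% of all tested genes. The lower ones were Cd4 itself (-0.46, SE 0.17, adjusted p = 0.0245) and Cd5 (-0.57, SE 0.23, adjusted p = 0.0398). Cd3d, Trbc1 and Trbc2 differed among batches 1 to 3 (3 of 10, beside 2.79%), and 0 of 10 passed between batches 1 and 3 (0.452%). No tested marker of another cell type passed among batches 1 to 3, beside 2.79% of all tested genes. The 11 myeloid and dendritic markers summed to 57.4 to 102 CPM in batches 1 to 3 and to 11.6 and 10.6 CPM in batch 4. All 9 of these that were tested were lower in batch 4, beside 39.4% of all tested genes. The 6 B cell markers summed to 433 to 560 CPM in batches 1 to 3 and to 1273 (NOD) and 654 CPM (B16A) in batch 4. Most of that sum was Ighm, at 428 to 1271 CPM. The 2 CD8 T cell markers summed to 65.3 to 121 CPM and then 186 and 122.9 CPM, with Cd8a at 0 in the NOD library of batch 4. The stromal and endothelial markers summed to 327 to 408 CPM and then 285 and 270 CPM. Most of that sum was Pecam1, at 269 to 403 CPM. Col1a1 reached at most 10.7 CPM and Cdh5 at most 2.99 CPM, and Pdpn was at 0 in every library. The NK cell (at most 3.90 CPM) and erythroid markers (at most 0.561 CPM) were near 0 in every library. The part of other cells in the batch 4 differences was not tested.

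The genes most like Fos were sought by the Pearson correlation of log2 CPM over the 6 libraries of batches 1 to 3 after the batch means were removed. They were Chchd7, Agps, Mdm2, Cpeb4, Max and Morf4l2, each with r above 0.99, and their r over all 8 libraries was 0.65, 0.66, 0.75, 0.62, -0.30 and 0.71. Only 3 differences between hosts enter this measure, and 452 of 8081 genes (5.59%) had an r above 0.9, so the list is a description of these libraries. Over all 8 libraries, Jun (0.97), Maff (0.94), Fosb (0.91) and Junb (0.88) had the highest r with Fos of the other members, with batch shared by the points, and Atf3 had the lowest (-0.51).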

How the data were processed

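RNA of sorted T cells was measured in 8 libraries. The authors deposited raw read counts per gene in 1 table, whole numbers that are not normalized. Per the labels' protocols, RNA was amplified with the SeqPlex kit and read as single 50-base reads. The submitters' processing notes name STAR, HTSeq, DESeq2 and the build mm10. Versions, annotation and strand use were not given in the sources used here.

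Groups and batches came from the labels, which do not tie libraries to separate animals. The p-values therefore measure only the spread between libraries, and that spread may be technical. In the tests with batch as a term, it is the spread left between paired libraries of a batch after host is fitted. The spread among batches does not enter those p-values. Batch 4 is a single batch, so they do not measure how far another such batch would differ. The numbers pair the libraries because the labels call them batches. Deviations from the group means correlated across genes with r = 0.625, 0.702, 0.611 and 0.906 within batches 1 to 4, but in batches 1 to 3 pairs with unlike numbers had r = 0.465 to 0.741, so this check does not show pairing there. No libraries agreed within sampling noise (smallest chi-square per degree of freedom 8.54).

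Counts were tested with edgeR 4.0.16 (filterByExpr on host, TMM, robust quasi-likelihood F test) in R 4.3.3, with Benjamini-Hochberg adjustment over all 14607 tested genes (15716 for batches 1 to 3) and a threshold of 0.05. The host test had no batch term, the batch tests had host as a term. Standard errors were derived from the F statistic. Log2 CPM used a prior count of 2. DESeq2 1.42.0 and voom of limma 3.58.1 were alternatives. The test was also run on simulated counts, with the same dispersion for every gene and, for the host test, no batch differences. That run therefore does not show how well the host test finds differences in these libraries. Gene positions are from GENCODE vM21 and promoters from RefSeq GRCm38.p6. All p-values are from edgeR unless another tool is named, and two-sided.

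The members, gene lists and tests were chosen with earlier results of these data known. All 10 members are named. Of each other list the text names up to 3 genes past the threshold per direction by size of change in the host and batch 4 tests, or the 2 with the smallest p; a gene that this rule names is not reported here. The genes like Fos are the 6 highest correlations among genes with a mean of at least 10 CPM. The single contrasts of batches 1 to 3, the batch 4 interaction and leaving out single libraries within batches 1 to 3 were added after the data were seen.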

Additional observations from a re-analysis of the deposited data

Results flagged for a closer look

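Atf3 stood out in 2 ways, both from the batch 4 library of the B16A host, in which it had no counts. Among the 4 B16A libraries its log2 CPM in batch 4 lay so far below the others that the gap was 0.973 of their whole range, above Dixon's 95% critical value for 4 samples. Such a check was made for each of the 10 genes in each host, 20 groups in all, and chance alone passes the limit in about 1 in 20 groups. The log2 difference between hosts was also 7.06 larger in batch 4 than in batches 1 to 3 by the edgeR interaction test, a fitted value that depends on the prior count.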

How the results depend on the processing

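No member passed the host test over 8 libraries under any alternative run, the replicate block included, and the median over the members with the block was -0.05, as without it. Neither edgeR nor voom with the block called a member, and DESeq2 with the block gave 5 of them no adjusted p. The count of all genes called between hosts, 0 as reported, was 32 with batch 4 left out and the replicate block, 27 with DESeq2 and the block, and 9 with voom and the block. The directions of the host differences, none of which passed, turned in several settings. With batch 4 left out, they were -0.65 for Fos, -0.005 for Jun, 0.29 for Junb and -0.12 for Batf, and with the block as well -0.36, -0.03, 0.15 and -0.19. Junb was 0.005 under DESeq2 with the block, 0.70 under voom and 0.24 under voom with the block. Voom gave 0.031 for Fosb and 0.10 for Jund, and with the block -0.23 for Fos. Leaving out single libraries moved the host median of the members from -1.01 (without the NOD library of batch 4) to 0.38. The same ranges were -1.26 to 1.23 for Fos, -1.41 to 0.57 for Fosb, -1.11 to 0.73 for Fosl2, -0.92 to 1.30 for Jun, -1.44 to 1.499 for Junb, -0.43 to 0.26 for Jund, -0.25 to 0.46 for Batf and -1.11 to 0.44 for Maff. Within batches 1 to 3, 0 to 1 members passed the host test when single libraries were left out.

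For batch 4 against the rest, 18852 genes passed with no filter, a setting in which more genes were tested, against 10443. Leaving out single libraries gave a median of the members from 1.28 (without the NOD library of batch 4) to 2.37, and 6 to 9 members called. Jund was 0.16 with no filter and ran from -0.20 to 0.12 over the libraries left out, and Mafk was -0.18 under upper-quartile scaling. Mafk passed as higher with no filter (0.77) and without the B16A library of batch 3 (0.77) or of batch 4 (0.78). The cause of these changes was not tested. With 1 library per host and batch, the lower depth of batches 1 to 3 limits the precision of low members such as Fosl2 (26 counts in its lowest library) and Maff (30 counts).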
